A study of Arabidopsis thaliana with 70 samples.

Results

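Leaves of Arabidopsis thaliana wild type (WT) that had been inoculated with flg22 and were then given bacteria were compared with WT leaves that had received flg22 alone. The comparison holds 5 of the 38 RNA libraries of the study and 5 of its 70 samples, and its members were chosen by their labels. In the flg22 + hrcC group (n = 2), leaves of 4-week-old plants were inoculated by hand with 100 nM flg22, and 24 h afterwards the same leaves were given the bacterium Pseudomonas syringae pv. tomato DC3000 hrcC, for 1 h. In the flg22-only group (n = 3), leaves of 4-week-old WT plants received 100 nM flg22 in the same way and were taken at 24 h. Both groups therefore carry flg22, and neither carries a mutation. The groups are separate experiments, and the labels name no mock second inoculation, so the bacteria, the second inoculation, 1 h of added time and the experimental batch cannot be told apart in any result below. The study also holds leaves of both kinds that had water in place of flg22, and the same treatments in rdd, a triple mutant of ROS1, DML2 and DML3, which encode DNA demethylases.

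Plants sense conserved microbial molecules (MAMPs) with receptors at the cell surface. flg22 is a peptide from bacterial flagellin that is bound by the receptor kinase FLS2 with its co-receptor BAK1. Binding sets off calcium influx, an oxidative burst through RBOHD, mitogen-activated protein kinase cascades and a fast wave of transcription. The hrcC mutant cannot build the type III secretion system with which Pseudomonas injects effector proteins, so leaves meet its MAMPs without its effectors. A leaf that has met flg22 before and then meets bacteria is a common test of priming, the state in which a second contact is answered differently from a first.

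Levels are given in FPKM, fragments counted relative to the length of the gene and to the size of the library, divided by a factor per library that was computed as a median ratio over nuclear genes. Fold changes are differences of log2(FPKM + 1), flg22 + hrcC over flg22-only, followed by ± SE from limma, and understate the change of weakly expressed genes. The depth of the libraries is unknown, since the values are not counts. The 3 flg22-only libraries were not of 1 kind: genes of the chloroplast and mitochondrial genomes took 3.05% and 3.27% of all FPKM in replicates 1 and 2 and 0.0832% in replicate 3, while they took 0.0934% and 0.117% in the flg22 + hrcC libraries. The same split of replicate 3 from replicates 1 and 2 was present in all 4 groups taken at 24 h. Across genes, the flg22 + hrcC libraries differed by 2-fold or more at 180 genes, replicates 1 and 2 of flg22-only leaves at 691, and replicate 3 at 3313 and 3046 genes from them. Calls were therefore also made against replicates 1 and 2 alone and against replicate 3 alone, and a gene called in 1 direction in both is said to be called against both kinds of flg22-only library. The fit against replicate 3 holds 1 library per 24 h group, so its spread comes from the groups with hrcC alone. Calls against replicate 3 therefore assume that flg22-only leaves vary as those groups do, and calls against both kinds rest in part on this. The study's design text calls its repeats independent without saying whether they came from separate plants, and the spread behind each p-value may therefore be technical. The mesophyll markers CA1, RCA, LHCB1.3, RBCS1A and GAPB were above 0 in all 5 libraries, and 7 of 12 root markers were at 0 in all 5, among them COBL9, EXPA7 and CASP1.

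The groups differed at a large share of nuclear genes. Of 18903 genes tested, 4268 (22.6%) were higher and 4471 (23.7%) lower in flg22 + hrcC leaves at an adjusted p under 0.05 (limma, Benjamini-Hochberg), 46.2% in all. By at least 2-fold, 2699 (14.3%) were higher and 2646 (14.0%) lower. The scaling sets the median over all genes tested close to 0 (-0.02). Without scaling the median was -0.13, with 3612 higher and 5471 lower, so 39.8% of the calls were higher, against 48.8% with scaling. Against both kinds of flg22-only library 3678 were called higher and 3575 lower, together 38.4% of genes tested. The libraries of both groups did not overlap at 12443 genes (65.8%). In these bulk samples fewer cells of a type and less RNA per cell cannot be told apart. Counts of the lists below are to be read against 22.6% higher and 23.7% lower, and statements that groups did not overlap against 65.8%.

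The 12 largest increases were in genes of low level in flg22-only leaves, with at most 11.3 FPKM in any of these libraries. PP2-A5, of the PHLOEM PROTEIN 2 lectin family, had 608 and 542 FPKM in flg22 + hrcC leaves, against 0.526, 0.569 and 0.808 FPKM in flg22-only leaves, a log2 difference of 8.46 ± 0.68. PUB22, a U-box ubiquitin ligase that dampens MAMP signalling, had 611 and 489 FPKM in flg22 + hrcC leaves, against 3.92, 2.93 and 2.38 FPKM in flg22-only leaves (7.09 ± 0.28). The 12 genes were chosen among those with no overlap between groups, so the separation from every flg22-only library, replicate 3 included, follows from the choice. The nitrate transporter family gene NRT2.6 had 938 and 809 FPKM in flg22 + hrcC leaves, against 2.9, 5.18 and 3.9 FPKM in flg22-only leaves (7.47 ± 0.34). WRKY29, a transcription factor gene known as a target of the flg22 kinase cascade, had 706 and 605 FPKM in flg22 + hrcC leaves, against 6.6, 9.59 and 4.76 FPKM in flg22-only leaves (6.40 ± 0.28). PROPEP3, which encodes the precursor of a Pep peptide that the plant's own receptors PEPR1 and PEPR2 sense as a sign of damage, had 214 and 236 FPKM in flg22 + hrcC leaves, against 3.78, 1.21 and 1.01 FPKM in flg22-only leaves (6.35 ± 0.39). That the groups did not overlap in these genes follows from the same choice. The cysteine-rich receptor kinase gene CRK29 had 298 and 243 FPKM in flg22 + hrcC leaves, against 1.86, 1.99 and 2.53 FPKM in flg22-only leaves (6.44 ± 0.21), and JAZ8, a repressor of jasmonate signalling, had 130.3 and 88.7 FPKM in flg22 + hrcC leaves, against 0.263, 0.255 and 0 FPKM in flg22-only leaves (6.54 ± 0.63). Of genes without a symbol, AT5G48430 (8.20 ± 0.17), AT1G51820 (7.71 ± 0.20), AT1G22810 (7.68 ± 0.51) and AT5G36925 (6.76 ± 0.92) completed the list with AT2G31335, which had 96.2 and 126 FPKM in flg22 + hrcC leaves and was listed at 0 in the 3 flg22-only libraries. The adjusted p of the 12 genes in limma was at most 3.52e-05 (AT5G36925).

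**Figure D1:**
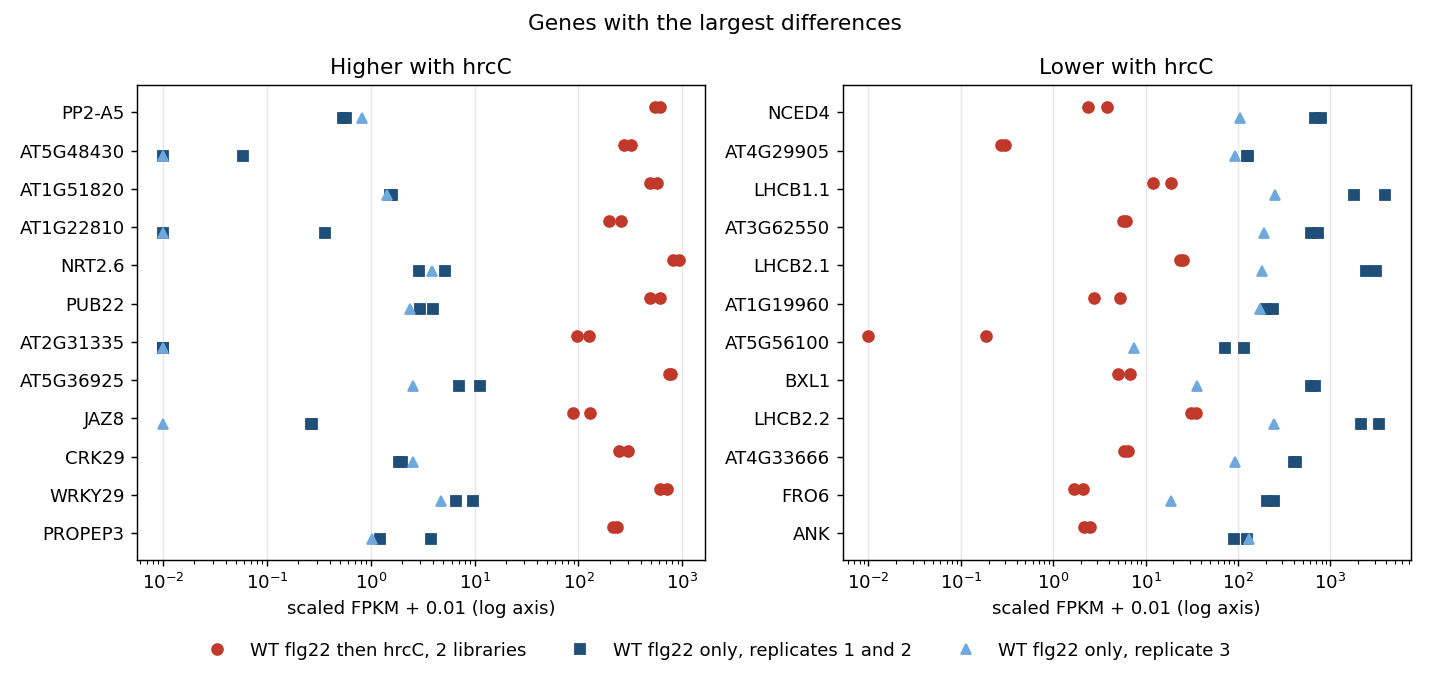
Levels of the 12 genes with the largest increase (left) and the 12 with the largest decrease (right) in each library, in scaled FPKM on a log axis after adding 0.01 so that values of 0 can be drawn. Red circles are the 2 flg22 + hrcC libraries, dark squares replicates 1 and 2 and light triangles replicate 3 of flg22-only leaves; the genes were chosen among those with no overlap between groups, and for most of the decreased genes replicate 3 lies between the other flg22-only libraries and the flg22 + hrcC libraries.

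The 12 largest decreases included 3 antenna genes of photosystem II and 5 genes without a symbol. NCED4, also called CCD4, which cleaves carotenoids, had 2.34 and 3.81 FPKM in flg22 + hrcC leaves, against 787, 686 and 106 FPKM in flg22-only leaves (-6.59 ± 1.18). Of the antenna proteins that hold chlorophyll around photosystem II, LHCB1.1 had 18.9 and 12.1 FPKM in flg22 + hrcC leaves, against 1775, 3862 and 252 FPKM in flg22-only leaves (-6.22 ± 1.21). LHCB2.1 had 25.4 and 23.2 FPKM in flg22 + hrcC leaves, against 2419, 3079 and 181 FPKM in flg22-only leaves, a log2 difference of -5.45 (limma adjusted p = 0.00332). In all 3 genes replicate 3 of flg22-only leaves was several-fold lower than replicates 1 and 2. It lay above both flg22 + hrcC libraries, as the choice of genes without overlap required. LHCB2.2 was lower as well (-5.17 ± 1.15). The LHCB1 and LHCB2 copies are close relatives, and how the authors' counting split reads between them is not given in the sources used here. BXL1, a cell wall beta-xylosidase, had 5.03 and 6.83 FPKM in flg22 + hrcC leaves, against 683, 612 and 35.7 FPKM in flg22-only leaves (-5.18 ± 1.27), and FRO6, a ferric reduction oxidase of green tissue, had 2.07 and 1.67 FPKM in flg22 + hrcC leaves, against 204, 243 and 18.8 FPKM in flg22-only leaves (-5.12 ± 1.12). The ankyrin gene ANK, also called BDA1, which acts in immune signalling at the membrane, had 2.15 and 2.49 FPKM in flg22 + hrcC leaves, against 124, 90.8 and 131 FPKM in flg22-only leaves (-5.11 ± 0.83). Here, unlike at the antenna genes, all 3 flg22-only libraries lay close together. The same held for AT4G29905, with 0.264 and 0.288 FPKM in flg22 + hrcC leaves, against 125, 128 and 91.7 FPKM in flg22-only leaves (-6.49 ± 0.26). The remaining genes were AT3G62550 (-6.01 ± 0.47), AT1G19960 (-5.40 ± 0.89), AT5G56100 (-5.27 ± 0.88) and AT4G33666 (-5.14 ± 0.67), and the highest adjusted p of the 12 in limma was 0.00402 (BXL1). All 24 genes with the largest differences stayed called with each of the 5 libraries left out in turn and against both kinds of flg22-only library.

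Genes of MAMP perception and signalling were mostly higher with hrcC. Of 42 measured members 36 were called higher and 1 lower, with a median log2 difference of 1.56, and 34 of the 36 were called against both kinds of flg22-only library. The receptor gene FLS2 itself had 112 and 111 FPKM in flg22 + hrcC leaves, against 13.7, 17 and 14.7 FPKM in flg22-only leaves (2.80 ± 0.14, limma adjusted p = 2.31e-09), and its libraries agreed closely within each group. Its co-receptor BAK1 had 146 and 136 FPKM in flg22 + hrcC leaves, against 41.9, 33.2 and 43.2 FPKM in flg22-only leaves (1.82 ± 0.15). The cytoplasmic kinase BIK1, which FLS2 releases on binding, had 273 and 220.2 FPKM in flg22 + hrcC leaves, against 33.9, 32.9 and 25.1 FPKM in flg22-only leaves (2.97 ± 0.33). Receptors of other MAMPs stood higher too, among them EFR for the elongation factor Tu peptide (2.38 ± 0.33) and the chitin receptor genes LYK5 (1.81 ± 0.42), LYK4 (2.13 ± 0.20) and CERK1 (1.60 ± 0.16). IOS1, a receptor kinase that associates with FLS2, had 1024 and 1003 FPKM in flg22 + hrcC leaves, against 22.8, 21.1 and 32.9 FPKM in flg22-only leaves (5.28 ± 0.20). The Pep receptor genes PEPR1 (2.63 ± 0.26) and PEPR2 (2.01 ± 0.20) rose, as did the precursor gene PROPEP2, with 71.1 and 81.2 FPKM in flg22 + hrcC leaves, against 1.45, 0.235 and 0.643 FPKM in flg22-only leaves (5.50 ± 0.29). No library of flg22 + hrcC leaves fell into the flg22-only range in any of the genes of this paragraph named so far. The same held for 65.8% of all genes tested.

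Among genes downstream of the receptors, the NADPH oxidase genes RBOHD (1.75 ± 0.36) and RBOHF (2.18 ± 0.26) and the kinase genes MKK4 (1.25 ± 0.18), MKK5 (1.29 ± 0.18), MEKK1 (0.80 ± 0.17) and MPK3 (0.82 ± 0.18) were called higher. MPK6 (0.59 ± 0.23), CPK5 (0.33 ± 0.23) and CPK11 (0.51 ± 0.54) were not called. PUB23, a close relative of PUB22, had 838 and 658 FPKM in flg22 + hrcC leaves, against 17, 16.9 and 31.3 FPKM in flg22-only leaves (5.09 ± 0.44), and PUB24 reached 1.28 ± 0.18, while PUB13, which marks FLS2 for removal, was not called (0.13 ± 0.20). The member called lower was BSK1, a kinase that joins FLS2 and brassinosteroid signalling (-0.69 ± 0.18), and how weak calls of this kind held with libraries left out is given with the lists as a whole.

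The marker genes of the flg22 response stood far above their level after flg22 alone. FRK1, the receptor-like kinase gene named for its induction by flg22, had 1479.6 and 1630.0 FPKM in flg22 + hrcC leaves, against 52.6, 38.5 and 85.9 FPKM in flg22-only leaves (4.77 ± 0.40, limma adjusted p = 4.16e-07). NHL10 had 255 and 258 FPKM in flg22 + hrcC leaves, against 54.1, 29.1 and 33.9 FPKM in flg22-only leaves (2.74 ± 0.44, adjusted p = 0.000158). WRKY30 had 84.6 and 116 FPKM in flg22 + hrcC leaves, against 5.77, 4.73 and 6.09 FPKM in flg22-only leaves (3.94 ± 0.40, adjusted p = 2.19e-06). In each of these genes the groups were well apart. Leaves that had water in place of flg22 put these levels in order: FRK1 had 251 and 254 FPKM in water + hrcC leaves and 3.2, 1.78 and 1.4 FPKM in water-only leaves, and NHL10 had 30.1 and 33.9 FPKM in water + hrcC leaves and 2.07, 0.877 and 0.272 FPKM in water-only leaves. FRK1 and NHL10 thus had their highest level in flg22 + hrcC leaves, next in water + hrcC leaves for FRK1, and their lowest in water-only leaves, whereas for NHL10 flg22-only and water + hrcC libraries overlapped. CYP81F2, which modifies indole glucosinolates, had 68.8 and 56.9 FPKM in water + hrcC leaves, above its level in flg22 + hrcC leaves. FLS2 reached 94.3 and 87.9 FPKM in water + hrcC leaves and 20.7, 20.2 and 17.3 FPKM in water-only leaves. PR1, the classical marker of salicylic acid signalling, kept to pretreatment: it had 47.6 and 55.4 FPKM in water + hrcC and 81, 10.4 and 44.7 FPKM in water-only leaves, far below both flg22 groups, whose values stand with the salicylic acid genes.

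**Figure D2:**
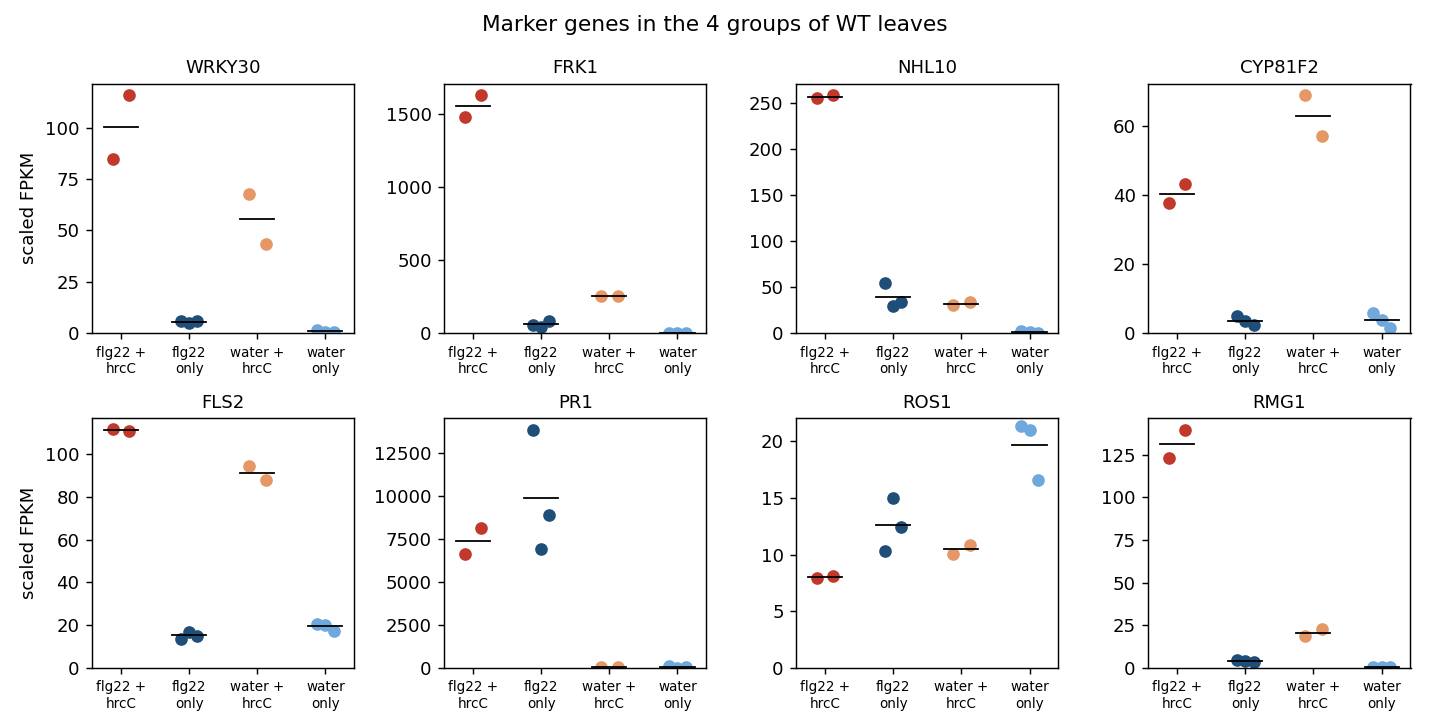
Scaled FPKM of 8 genes in every library (points) of the 4 groups of WT leaves, with the group mean as a line; n = 2 in the groups with hrcC and n = 3 in the others. WRKY30, FRK1, NHL10, CYP81F2, FLS2 and RMG1 are higher with hrcC after either pretreatment, PR1 is high after flg22 with or without hrcC, and ROS1 lies between 7.90 and 21.4 FPKM throughout.

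Of early transcription factor genes, 18 of 29 were higher and 3 lower, with a median of 1.86. All 21 calls held against both kinds of flg22-only library. WRKY22, which acts beside WRKY29, had 709 and 554 FPKM in flg22 + hrcC leaves, against 15.7, 15.1 and 4.84 FPKM in flg22-only leaves (5.75 ± 0.63). WRKY40, a repressor that limits defence, had 516 and 471 FPKM in flg22 + hrcC leaves, against 11.7, 7.1 and 23.4 FPKM in flg22-only leaves (5.18 ± 0.49), and WRKY33, the activator of camalexin synthesis, had 351 and 307 FPKM in flg22 + hrcC leaves, against 51, 42.6 and 52.1 FPKM in flg22-only leaves (2.74 ± 0.25). MYB15, which activates lignin synthesis genes in defence, had 311 and 219 FPKM in flg22 + hrcC leaves, against 4.84, 2.64 and 6.05 FPKM in flg22-only leaves (5.62 ± 0.54). These are all genes with no overlap between groups, as were 65.8% of all genes tested. WRKY11 (3.70 ± 0.16) and WRKY6 (4.49 ± 0.25) had the smallest adjusted p of the list together with WRKY29 and the zinc finger gene SZF1 (3.19 ± 0.24). Ethylene response factors were less uniform: ERF5 (2.55 ± 0.21) and ERF11 (1.86 ± 0.45) rose, and ERF6 (1.16 ± 0.47), ERF105 (0.48 ± 0.29) and ERF104 (-0.85 ± 0.35) were not called. The cold regulator CBF1 (-2.65 ± 0.76) and its neighbour CBF3 fell, and CBF3 was listed at 0 in both flg22 + hrcC libraries against 4.64, 5.31 and 3.73 FPKM in flg22-only leaves. The CBF genes are close copies, so their split is uncertain.

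Of 15 calcium and touch genes, 10 were higher and 1 lower, with a median of 1.40. The calcium pump gene ACA12 had 432 and 346 FPKM in flg22 + hrcC leaves, against 49.3, 26.2 and 52.5 FPKM in flg22-only leaves (3.21 ± 0.33). TCH3, a calmodulin-like gene induced by touch, had 2624 and 2483 FPKM in flg22 + hrcC leaves, against 599, 578 and 438 FPKM in flg22-only leaves (2.26 ± 0.32). The deadenylase genes CAF1A (3.00 ± 0.38) and CAF1B (2.99 ± 0.25) rose, and the xyloglucan enzyme gene TCH4, also touch-induced, was not called (0.35 ± 0.40). The vacuolar cation exchanger gene CAX3 was the exception, with 8.85 and 8.12 FPKM in flg22 + hrcC leaves, against 182, 113 and 84.8 FPKM in flg22-only leaves (-3.68 ± 0.43). The second inoculation by hand cannot be told apart from the bacteria in these genes.

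Defence metabolism genes were higher with hrcC in large part. Of 27 genes for indole glucosinolates, camalexin and tryptophan, 24 were higher and none lower, with a median of 1.55. CYP71B15, the last enzyme of camalexin synthesis, had 333 and 358 FPKM in flg22 + hrcC leaves, against 16.4, 9.25 and 32.8 FPKM in flg22-only leaves (4.25 ± 0.57), and CYP71A13, an earlier step, had 44.2 and 46.7 FPKM in flg22 + hrcC leaves, against 15.7, 6 and 9.97 FPKM in flg22-only leaves (limma adjusted p = 0.000554). PEN2, the myrosinase that activates indole glucosinolates at sites of attack, had 903 and 866 FPKM in flg22 + hrcC leaves, against 142, 146 and 149 FPKM in flg22-only leaves (2.60 ± 0.15). PEN3, the transporter that exports their products, had 1615 and 1517 FPKM in flg22 + hrcC leaves, against 348, 366 and 477 FPKM in flg22-only leaves (1.99 ± 0.20). All 3 flg22-only libraries lay within a narrow band for PEN2. The tryptophan synthesis genes TSB1 (1.55 ± 0.24), TSA1 (1.44 ± 0.20) and ASA1 (1.39 ± 0.20) rose by less, and CYP81F2 had 37.5 and 43.2 FPKM in flg22 + hrcC leaves, against 4.84, 3.46 and 2.4 FPKM in flg22-only leaves (3.21 ± 0.37). AT1G26380 had 120.4 and 141 FPKM in flg22 + hrcC leaves, against 7.29, 7.22 and 3.29 FPKM in flg22-only leaves (4.31 ± 0.51), and AT2G04400 was higher as well (2.09 ± 0.24). CYP71A12 and CYP71A13 lie in tandem and are close copies, so their split is uncertain.

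Of 20 genes for phenylpropanoids, peroxidases and callose, 16 were higher and none lower, and the median of 2.80 was the highest of the 18 lists. They included the entry enzymes PAL1, with 518 and 435 FPKM in flg22 + hrcC leaves, against 34.7, 22.4 and 32.3 FPKM in flg22-only leaves (3.97 ± 0.30), and PAL2 (4.29 ± 0.40), and then C4H, with 1471 and 1199 FPKM in flg22 + hrcC leaves, against 150.2, 137 and 76.4 FPKM in flg22-only leaves, and 4CL1, with 1216 and 942 FPKM in flg22 + hrcC leaves, against 60.6, 51.5 and 80 FPKM in flg22-only leaves (4.07 ± 0.25). CCR2, a lignin-branch reductase, had 74.2 and 49.8 FPKM in flg22 + hrcC leaves, against 1.87, 2.01 and 1.35 FPKM in flg22-only leaves (4.50 ± 0.26). These are successive steps of the pathway toward lignin, and none of their groups overlapped, as at 65.8% of all genes tested. FAH1 (0.41 ± 0.32), which serves syringyl lignin and sinapate, was not called. The callose synthase gene PMR4 reached 1.97 ± 0.25. The listed member AT5G39580 had 216 and 211 FPKM in flg22 + hrcC leaves, against 11, 10.9 and 7.3 FPKM in flg22-only leaves (4.34 ± 0.30). Of peroxidase genes PRX71 had 3501 and 3836 FPKM in flg22 + hrcC leaves, against 1024, 615 and 495 FPKM in flg22-only leaves (2.43 ± 0.53), and PRX34 did not pass the test (0.02 ± 0.26), with 1486 and 1619 FPKM in flg22 + hrcC and 1698, 1135 and 1861 FPKM in flg22-only leaves.

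Of 19 detoxification genes, 10 were higher and 1 lower, with a median of 0.75. The 12-oxophytodienoate reductase gene OPR1 had 249.7 and 221 FPKM in flg22 + hrcC leaves, against 15.5, 10.3 and 22.1 FPKM in flg22-only leaves (3.86 ± 0.42), and the glutathione transferase gene GSTU11 had 63.2 and 75.2 FPKM in flg22 + hrcC leaves, against 7, 4.23 and 10.1 FPKM in flg22-only leaves (3.17 ± 0.31). GSTU12, of the same family, was higher too (0.97 ± 0.11). The alternative oxidase gene AOX1A had 79.5 and 80 FPKM in flg22 + hrcC leaves, against 42.6, 26 and 36.2 FPKM in flg22-only leaves and was called higher, and the glucosyltransferase gene UGT73C5 fell, with 1.27 and 1.99 FPKM in flg22 + hrcC leaves, against 13.6, 9.05 and 8.42 FPKM in flg22-only leaves (limma adjusted p = 0.000176). Aliphatic glucosinolate genes had 2 of 12 called higher, none lower and a median of 0.54, namely SOT17 (1.02 ± 0.26) and CYP79F2 (1.24 ± 0.47). The regulator gene MYB76 was not called (1.07 ± 0.47). This list depended on the library: its median was 0.96, with 8 higher and none lower, against replicates 1 and 2 of flg22-only leaves and -0.69, with 2 higher and 7 lower, against replicate 3. BCAT4, the entry enzyme of methionine chain elongation, shows the split, with 94.7 and 107 FPKM in flg22 + hrcC leaves, against 20.1, 26.7 and 109.5 FPKM in flg22-only leaves (1.34 ± 0.88, limma adjusted p = 0.23).

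Jasmonate and ethylene genes had 22 of 35 called higher and 1 lower, with a median of 1.72. Genes for successive enzymes of jasmonate synthesis rose: LOX3 (3.55 ± 0.98) and LOX4 (3.93 ± 0.49), AOS (2.37 ± 0.51), AOC3 (4.92 ± 0.90) and OPR3 (2.76 ± 0.63). AOC3 had 753 and 530.3 FPKM in flg22 + hrcC leaves, against 20.5, 18.24 and 21.1 FPKM in flg22-only leaves, and LOX4 had 135 and 86 FPKM in flg22 + hrcC leaves, against 7.3, 4.89 and 6.42 FPKM in flg22-only leaves. The groups were apart in both. Repressor genes of the JAZ family stood higher at JAZ5 (4.33 ± 0.83), JAZ10 (4.32 ± 1.02), JAZ1 (3.86 ± 0.55) and JAZ7 (3.18 ± 0.73), and JAZ3 (0.24 ± 0.25) and JAZ12 (0.15 ± 0.20) were not called. CYP94C1, which inactivates jasmonoyl-isoleucine, had 349 and 286 FPKM in flg22 + hrcC leaves, against 9.49, 6.5 and 5.89 FPKM in flg22-only leaves (5.28 ± 0.73). The storage protein genes VSP1 and VSP2, classical outputs of jasmonate, were not called and stayed low: VSP2 had 0.359 and 1.05 FPKM in flg22 + hrcC and 0, 0.0981 and 0.313 FPKM in flg22-only leaves. For ethylene, the synthase gene ACS7 had 272 and 288 FPKM in flg22 + hrcC leaves, against 5.12, 3.41 and 3.72 FPKM in flg22-only leaves (5.80 ± 0.20) and ACS6 had 55.2 and 52.4 FPKM in flg22 + hrcC leaves, against 11.4, 7.01 and 11.6 FPKM in flg22-only leaves (2.35 ± 0.31). ORA59, a transcription factor gene where both hormones meet, was the member called lower, with 0.739 and 0.36 FPKM in flg22 + hrcC leaves, against 8.44, 7.59 and 2.53 FPKM in flg22-only leaves (limma adjusted p = 0.00134).

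Salicylic acid and systemic resistance genes did not move as a block. Of 30 members 7 were called higher and 4 lower, with a median of 0.15, which was 0.00 without scaling, and the 7 higher were close to the share of all genes while the 4 lower were below it. The counts depended on the library, with 11 higher and 8 lower against replicates 1 and 2 of flg22-only leaves and 9 of each against replicate 3. Higher were genes of salicylic acid synthesis: ICS1, the isochorismate synthase, had 225 and 219.8 FPKM in flg22 + hrcC leaves, against 94, 67 and 74 FPKM in flg22-only leaves (1.51 ± 0.32), EDS5, its chloroplast exporter, had 196 and 151 FPKM in flg22 + hrcC leaves, against 24, 21.9 and 20.1 FPKM in flg22-only leaves (2.92 ± 0.22), and PBS3, which acts on isochorismate, had 84.5 and 87.5 FPKM in flg22 + hrcC leaves, against 44.5, 28.5 and 32.3 FPKM in flg22-only leaves (1.29 ± 0.26). SAG101, a partner of EDS1, had 191 and 164 FPKM in flg22 + hrcC leaves, against 54.7, 53.1 and 57.1 FPKM in flg22-only leaves (1.67 ± 0.12). The groups did not overlap in these genes, as at 65.8% of all genes tested. Lower were WRKY70, with 67.7 and 84.5 FPKM in flg22 + hrcC leaves, against 721, 656 and 574 FPKM in flg22-only leaves (-3.08 ± 0.75), LURP1, with 101 and 103 FPKM in flg22 + hrcC leaves, against 1599, 1355 and 2488 FPKM in flg22-only leaves (-4.09 ± 1.23), and DMR6, which hydroxylates salicylic acid, with 112 and 128 FPKM in flg22 + hrcC leaves, against 396, 346 and 532 FPKM in flg22-only leaves (-1.80 ± 0.18). SARD1, an activator of ICS1, was the other member called lower (-1.39 ± 0.30). PR1 had 6649 and 8124 FPKM in flg22 + hrcC leaves, against 13847, 6897 and 8883 FPKM in flg22-only leaves (-0.37 ± 0.61, limma adjusted p = 0.654), and its groups overlapped. PR2 (0.73 ± 0.36), PR5 (0.16 ± 0.40), NPR1 (0.13 ± 0.19) and PAD4 (0.21 ± 0.24) were not called, nor was EPS1 of the same list. The remaining higher members were CBP60G, GRX480 and AIG1, whose calls were among those lost with single libraries left out.

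NLR immune receptors, which sense effectors inside the cell, were called higher at 5 of 21 genes and lower at 6, with a median of -0.16. Both counts were close to the shares over all genes tested, 22.6% higher and 23.7% lower. Against replicate 3 of flg22-only leaves 11 were lower, and without scaling 3 were higher. RMG1, an NLR gene whose promoter is a known target of active DNA demethylation, had 123 and 139 FPKM in flg22 + hrcC leaves, against 4.54, 3.93 and 3.51 FPKM in flg22-only leaves (4.73 ± 0.27, limma adjusted p = 1.38e-08). RPM1, which guards RIN4, had 30.8 and 26.3 FPKM in flg22 + hrcC leaves, against 10.4, 7.98 and 10.2 FPKM in flg22-only leaves (1.49 ± 0.27). Lower were RPP5, with 31.9 and 33.2 FPKM in flg22 + hrcC leaves, against 90.2, 91.1 and 94.4 FPKM in flg22-only leaves (-1.47 ± 0.16), and RPP4, with 21.9 and 25.1 FPKM in flg22 + hrcC leaves, against 59.1, 59.6 and 71.5 FPKM in flg22-only leaves (-1.39 ± 0.20), which lie in 1 cluster of close copies. SUMM2 was lower as well (-0.86 ± 0.15). ZAR1 (0.32 ± 0.34), SNC1 (-0.28 ± 0.25) and RPS2 (-0.99 ± 0.43) were not called. Of 17 heat shock genes 8 were higher and 1 lower, with a median of 0.44, which was 0.82 against replicate 3 of flg22-only leaves. The chaperone gene HSP90.1 had 57.1 and 54.8 FPKM in flg22 + hrcC leaves, against 10.5, 9.28 and 7.27 FPKM in flg22-only leaves (2.52 ± 0.29) and its regulator HSFA2 had 9.1 and 7.03 FPKM in flg22 + hrcC leaves, against 1.14, 0.451 and 1.74 FPKM in flg22-only leaves (2.14 ± 0.33). The heat shock factor gene HSFB1 was higher as well (2.06 ± 0.36). The small heat shock protein gene HSP17.6II had 1.6 and 2.33 FPKM in flg22 + hrcC leaves, against 0.156, 0.304 and 0.226 FPKM in flg22-only leaves (1.26 ± 0.22), and HSP17.4 (-0.06 ± 0.28) and HSP18.2 (0.12 ± 0.31) were not called.

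Nuclear photosynthesis genes were lower almost throughout. Of 40 members 34 were called lower and none higher, with a median of -1.85, and all 34 were called against both kinds of flg22-only library. The median was -2.17 against replicates 1 and 2 and -1.18 against replicate 3. The 6 largest decreases of the list were in antenna genes of photosystem II. Besides the LHCB1 and LHCB2 genes above, LHCB4.2 had 56.2 and 49 FPKM in flg22 + hrcC leaves, against 1739.7, 2616 and 455 FPKM in flg22-only leaves (-4.58 ± 0.77), and LHCB3 had 143 and 121 FPKM in flg22 + hrcC leaves, against 2420.2, 4248 and 874 FPKM in flg22-only leaves (-3.97 ± 0.65). LHCB1.2 was lower too (-4.31 ± 0.48). Antenna genes of photosystem I were lower at LHCA4 (-3.55 ± 0.58), LHCA3 (-2.95 ± 0.54), LHCA1 (-2.18 ± 0.49) and LHCA2 (-1.86 ± 0.41). Core subunits and electron carriers were lower too, as at PSAD1 (-2.64 ± 0.40), PSBO2, with 325 and 309 FPKM in flg22 + hrcC leaves, against 1142, 1245 and 664 FPKM in flg22-only leaves (-1.63 ± 0.23), and plastocyanin PETE1, with 73.1 and 61.3 FPKM in flg22 + hrcC leaves, against 277, 387 and 207 FPKM in flg22-only leaves (-2.05 ± 0.21). In the carbon cycle, PRK had 181 and 162 FPKM in flg22 + hrcC leaves, against 679, 903 and 658 FPKM in flg22-only leaves and the smallest adjusted p of the list (1.06e-06, limma), the Rubisco activase gene RCA reached -2.06 ± 0.35, and the Rubisco small subunit genes were not called. RBCS1A had 7681 and 6026 FPKM in flg22 + hrcC leaves, against 6638, 10213 and 8778 FPKM in flg22-only leaves (-0.31 ± 0.30), and its groups overlapped. PSBS, the sensor of excess light, was not called (0.19 ± 0.44).

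The summed level of the 5 mesophyll markers was 12399.9 and 9667 FPKM in flg22 + hrcC leaves, against 23679.7, 40128 and 20722 FPKM in flg22-only leaves. The groups did not overlap (exact permutation test, two-sided, p = 0.2, where 2 against 3 libraries cannot go below 0.1). Within the list RCA and LHCB1.3, which are also photosynthesis genes, were lower, and RBCS1A, GAPB and CA1 (1.34 ± 1.01) were not called. Markers of other leaf cells did not follow: the sums over phloem companion cell markers were 1149 and 1055 FPKM in flg22 + hrcC leaves, against 1193, 1049 and 919.9 FPKM in flg22-only leaves, and those over guard cell and stomatal lineage markers were 72.8 and 69.7 FPKM, against 61.2, 77.7 and 69.6 FPKM. Both overlapped between groups, as did the sums of epidermis and root markers. The part of the mesophyll sum in the photosynthesis calls was not tested.

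**Figure D3:**
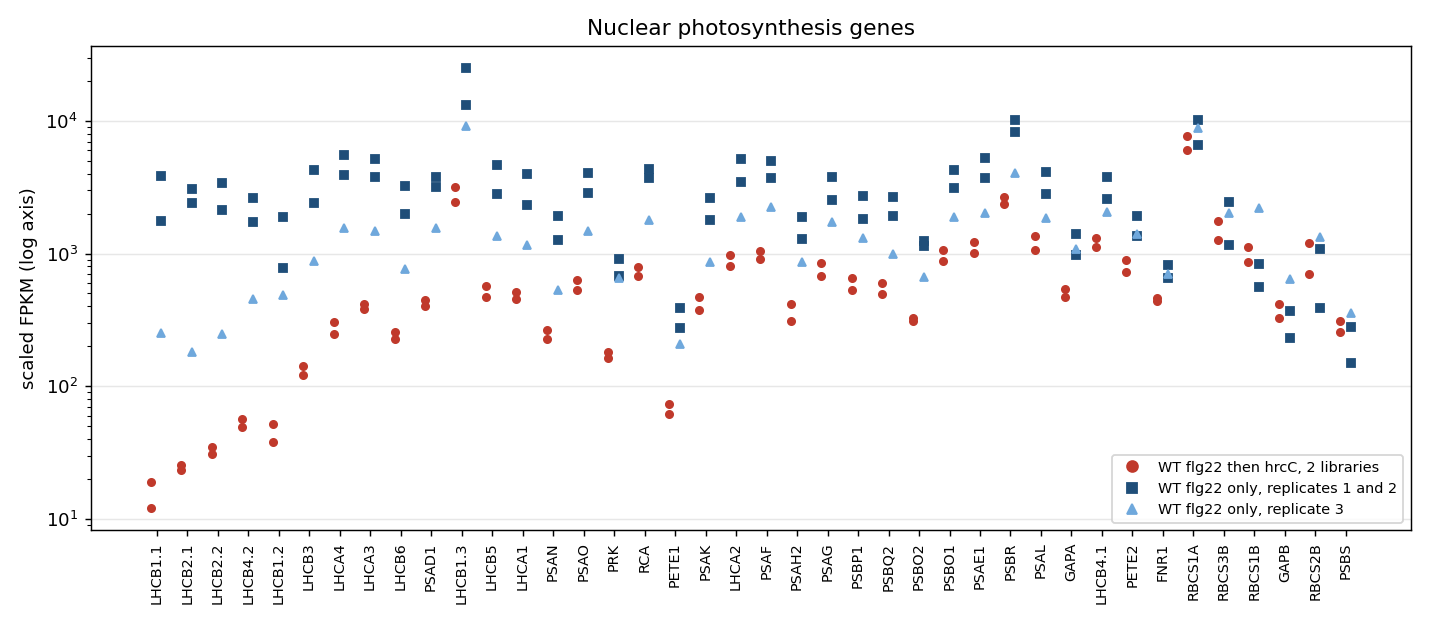
Levels of the 40 nuclear photosynthesis genes in each library, in scaled FPKM on a log axis, ordered by log2 fold change with the largest decrease at the left. Red circles are flg22 + hrcC libraries, dark squares replicates 1 and 2 and light triangles replicate 3 of flg22-only leaves; the gap between the groups narrows from LHCB1.1 to the RBCS genes and PSBS at the right, and replicate 3 is the lowest flg22-only library at most of the genes that fell.

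Clock genes were lower more often than higher with hrcC. Of 23 members 2 were higher and 11 lower, with a median of -1.49. Against replicates 1 and 2 of flg22-only leaves 5 were higher and 16 lower, and against replicate 3 of 19 tested 1 was higher and 15 lower. Lower were RVE4, with 3.66 and 2.86 FPKM in flg22 + hrcC leaves, against 71.1, 96.6 and 18 FPKM in flg22-only leaves (-3.59 ± 0.91), LNK1, with 2.49 and 2.23 FPKM in flg22 + hrcC leaves, against 40.9, 36.5 and 23.8 FPKM in flg22-only leaves (-3.34 ± 0.36), and CHE, with 6.09 and 4.75 FPKM in flg22 + hrcC leaves, against 34.8, 63.2 and 33.8 FPKM in flg22-only leaves (-2.75 ± 0.23). RVE4 and LNK1 are known to peak in the morning. GI (-1.49 ± 0.21) and PRR7 (-1.74 ± 0.31) were lower too. The evening gene BOA, also called NOX, had 13 and 11.3 FPKM in flg22 + hrcC leaves, against 0.789, 0.922 and 7.03 FPKM in flg22-only leaves (2.12 ± 0.70), and LUX (1.25 ± 0.41) was the other member called higher. The morning regulators CCA1, with 0.127 and 0.0514 FPKM in flg22 + hrcC leaves, against 9.7, 5.84 and 0.869 FPKM in flg22-only leaves (-2.24 ± 0.87), and PRR9, with 0.158 and 0.0823 FPKM in flg22 + hrcC leaves, against 31.6, 26.6 and 0.904 FPKM in flg22-only leaves (-3.42 ± 1.58, limma adjusted p = 0.0911), had replicates 1 and 2 of flg22-only leaves apart from replicate 3. The hour of sampling is not in the labels, so its part in these levels was not tested.

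Genes of growth were lower more often than higher, with 10 of 32 auxin, brassinosteroid and expansion genes called lower, 4 higher and a median of -1.04. Over all genes tested 23.7% were lower and 22.6% higher, so the share called lower was not far from that of all genes. The expansin gene EXPA8 had 0.633 and 0.627 FPKM in flg22 + hrcC leaves, against 21.1, 101 and 32.3 FPKM in flg22-only leaves (-4.69 ± 0.60). PIF4, a transcription factor of elongation growth, had 15.1 and 11.7 FPKM in flg22 + hrcC leaves, against 97.3, 119.8 and 63.1 FPKM in flg22-only leaves (-2.68 ± 0.31), and the auxin efflux genes PIN3 (-2.83 ± 0.49) and PIN7, with 6.36 and 6.51 FPKM in flg22 + hrcC leaves, against 32.1, 49.8 and 36.2 FPKM in flg22-only leaves (-2.42 ± 0.36), were lower. Of brassinosteroid synthesis genes CPD was lower (-2.22 ± 0.60) and DWF4 higher, with 20.7 and 20.8 FPKM in flg22 + hrcC leaves, against 7.91, 6.6 and 6.82 FPKM in flg22-only leaves (1.43 ± 0.17). EXPA5 (2.78 ± 0.55), EXPA4 (2.48 ± 0.75) and XTH9 (2.24 ± 0.50), all wall-loosening genes, were higher. The list's median was -1.51, with 4 higher and 19 lower, against replicates 1 and 2 of flg22-only leaves and -0.18, with 7 higher and 10 lower, against replicate 3. Abscisic acid, cold and dehydration genes had 7 of 20 lower and 1 higher, with a median of -0.67. The proline synthesis gene P5CS1 had 7.21 and 5.88 FPKM in flg22 + hrcC leaves, against 257, 350.4 and 81.2 FPKM in flg22-only leaves (-4.70 ± 0.47), and the phosphatase gene PP2CA, which restrains abscisic acid signalling, had 11.5 and 9.86 FPKM in flg22 + hrcC leaves, against 108, 106 and 88.4 FPKM in flg22-only leaves (-3.12 ± 0.25). ABF3 (-3.01 ± 0.42) and ABI2 (-2.26 ± 0.25) were lower as well, and CYP707A3, which degrades abscisic acid, was the member that rose, with 20.5 and 17 FPKM in flg22 + hrcC leaves, against 1.37, 1.9 and 3.08 FPKM in flg22-only leaves (2.69 ± 0.42). RD29A (1.06 ± 0.67) and COR15A (0.85 ± 1.37) were not called.

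Of 10 senescence and starvation genes 3 were lower and 1 higher, with a median of -1.53. Against replicates 1 and 2 of flg22-only leaves 8 were lower (median -2.03), and against replicate 3 only 2 (median -0.29). NYC1, which starts chlorophyll b breakdown, had 31.7 and 29.7 FPKM in flg22 + hrcC leaves, against 387, 301 and 249 FPKM in flg22-only leaves (-3.28 ± 0.26), and SAG21, which answers oxidative stress, had 2278 and 2469 FPKM in flg22 + hrcC leaves, against 464, 421 and 594 FPKM in flg22-only leaves (2.28 ± 0.22). SEN1, a dark-induced gene, shows how far the flg22-only libraries could differ, with 9.23 and 10.6 FPKM in flg22 + hrcC leaves, against 1457, 1462 and 7.67 FPKM in flg22-only leaves (-4.60 ± 2.65, limma adjusted p = 0.173). Its groups overlapped at replicate 3. PAO, of chlorophyll breakdown, (-1.55 ± 0.39) and DIN10 (-1.37 ± 0.38) were the other members called. Of 14 cell division genes the cyclin gene CYCD3;3 was called lower (-1.04 ± 0.16) and the other 13 were not called, among them KN (-0.55 ± 0.22), CYCD3;1 (0.54 ± 0.36) and PCNA1 (1.11 ± 0.84). Against replicates 1 and 2 of flg22-only leaves 6 of 13 tested were higher and 1 lower.

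**Figure D4:**
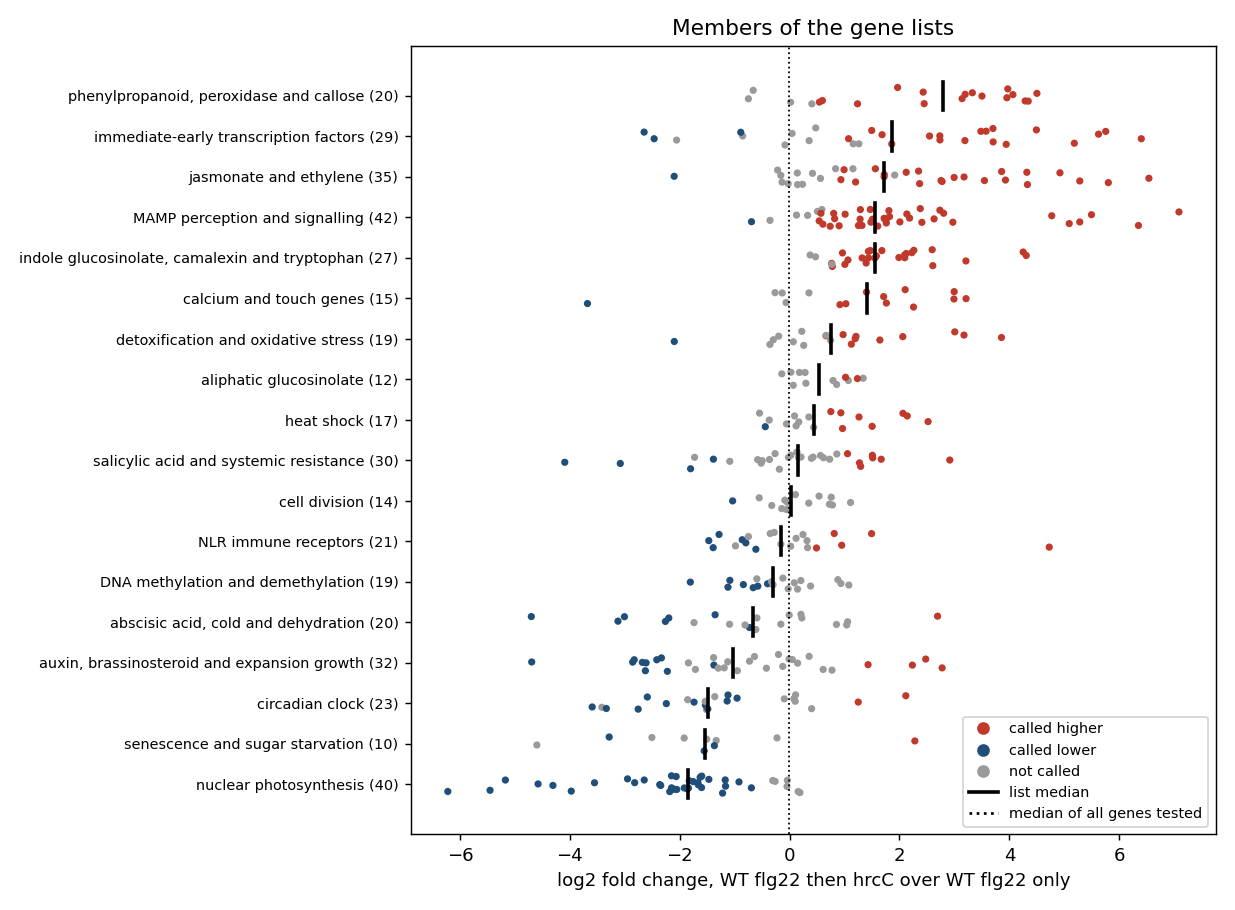
Log2 fold change, flg22 + hrcC over flg22-only, of each measured member of the 18 gene lists, with the number of members in brackets. Red points were called higher, blue points lower and grey points not called (limma, adjusted p under 0.05); the black bar is the list's median, and the dotted line is the median of all genes tested, -0.02. Lists of defence metabolism and signalling lie to the right, and nuclear photosynthesis, clock and growth lists to the left.

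Of the 257 called list members, 195 stayed called whichever of the 5 libraries was left out. Without replicate 1 or 2 of flg22 + hrcC leaves, which leaves 1 library assumed to vary like the other groups, 46 and 49 calls were lost, and without replicates 1, 2 or 3 of flg22-only leaves 21, 27 and 14. BSK1 (adjusted p = 0.0642 in limma), LOX3 (0.0634) and ROS1 (0.0680) were lost without replicate 1 of flg22 + hrcC leaves, and SOT17 (0.0618), AGO4 (0.0678) and ROS1 (0.0516) without replicate 2. CBF1 (0.0585 and 0.0557) and LURP1 (0.0689 and 0.0651) were lost without either of these. BOA, LUX, CCA1, CBF3, CYP79F2, MPK4 and MPK11 were lost in the 4 fits other than that without replicate 3 of flg22-only leaves, and CBP60G and GRX480, both higher with all libraries, in all 5 fits. EXPA4 was lost in 3 fits and ADR1-L2 in 2. None of these genes turned its direction.

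Since the study concerns DNA demethylation, the genes of that machinery were listed on their own. Of 19 members 7 were lower and none higher, with a median of -0.30. ROS1, the main demethylase of leaves, had 7.9 and 8.12 FPKM in flg22 + hrcC leaves, against 10.3, 15 and 12.4 FPKM in flg22-only leaves (-0.58 ± 0.17, limma adjusted p = 0.011). Its groups did not overlap, as at 65.8% of all genes tested. ROS1 had 10.1 and 10.9 FPKM in water + hrcC leaves and 21.4, 21 and 16.6 FPKM in water-only leaves. DML2 had 2.1 and 1.54 FPKM in flg22 + hrcC leaves, against 8.82, 8.8 and 8.84 FPKM in flg22-only leaves (-1.81 ± 0.25), and its flg22-only libraries agreed closely. DML3 had 1.04 and 0.998 FPKM in flg22 + hrcC leaves, against 2.2, 2.61 and 3.1 FPKM in flg22-only leaves (-0.84 ± 0.15), and DME, the fourth member of the family, was not called (0.38 ± 0.22). The methyltransferase gene DRM2 (-1.09 ± 0.18), the remodeller gene DRD1 (-1.12 ± 0.23) and AGO4 (-0.66 ± 0.18), all of RNA-directed methylation, were lower, and MET1 (0.21 ± 0.47) and CMT3 (1.08 ± 0.54) were not called. Against replicates 1 and 2 of flg22-only leaves alone, 6 members were higher and 7 lower, so the absence of higher calls depended on the library, and against replicate 3 none was higher and 12 were lower.

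Leaves that had received water in place of flg22 allowed a test of whether the difference between the 2 experiments was another after flg22. A shift common to a whole experiment cancels in this difference of differences. Of 18903 genes 471 (2.49%) were called in limma, 171 (0.905%) more positive after flg22 and 300 (1.59%) more negative. For the 171 the median log2 difference was 1.00 after flg22 and -0.37 after water. For the 300 it was 0.32 after flg22 and 1.70 after water, and 113 of them differed by 2-fold or more after water and by less than 2-fold after flg22. Leaving out 1 of the 10 WT libraries moved these counts to between 38 and 265 more positive and between 46 and 466 more negative. The first count moved by over 1.5 times without any library except replicate 2 of flg22-only leaves, and the second without any except that one and replicate 3 of water-only leaves. In the 2 groups without hrcC, replicates 1 and 2 deviated together whether numbered alike (correlations across genes of 0.45 and 0.41) or not (0.47 and 0.33). Replicate 3 had 0.64 between its 2 libraries and -0.45 to -0.61 with the others. Deviations were taken from group means, so these values of replicate 3 follow from those of replicates 1 and 2. Replicates of the 2 groups with hrcC did not deviate together by number (-0.07). With the replicate number as a block 1090 were more positive and 1679 more negative. Without scaling 147 were more positive and 559 more negative, so 20.8% of the calls were more positive, against 36.3% with scaling.

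At the 6 genes named for a more negative difference after flg22, flg22-only leaves stood above water-only leaves. IOS1 had 1024 and 1003 FPKM in flg22 + hrcC leaves, against 22.8, 21.1 and 32.9 FPKM in flg22-only leaves. After water it had 673 and 794 FPKM with hrcC, against 2.14, 2.24 and 1.3 FPKM without, so its difference was smaller after flg22 (-2.72 ± 0.28, limma adjusted p = 0.000387). AT2G27660 had 333 and 284 FPKM in flg22 + hrcC leaves, against 38.9, 33.5 and 35.8 FPKM in flg22-only leaves, and 185 and 201 FPKM in water + hrcC leaves, against 1.88, 1.66 and 2.62 FPKM in water-only leaves (-2.94 ± 0.32). HR4, a homolog of the broad-spectrum mildew resistance gene RPW8, had 4074 and 4079 FPKM in flg22 + hrcC leaves, against 1315, 1064 and 1165 FPKM in flg22-only leaves, and 3323 and 4141 FPKM in water + hrcC leaves, against 229, 228 and 179 FPKM in water-only leaves (-2.34 ± 0.28). IOS1 and AT2G27660 thus had their highest level in flg22 + hrcC leaves, and at HR4 the groups with hrcC overlapped. SGT1A, a co-chaperone of NLR receptors, had 199 and 208 FPKM in flg22 + hrcC leaves, against 103, 90.6 and 86.1 FPKM in flg22-only leaves, and 343 and 404 FPKM in water + hrcC leaves, against 42.1, 39.6 and 37.4 FPKM in water-only leaves (-2.08 ± 0.24). For SGT1A the highest level was after water. The zinc finger gene ZAT7 moved in opposite directions, with 21.4 and 18.9 FPKM in flg22 + hrcC leaves, against 95.3, 66.8 and 55 FPKM in flg22-only leaves, and 27.1 and 21.7 FPKM in water + hrcC leaves, against 6.77, 6.94 and 4.83 FPKM in water-only leaves (-3.59 ± 0.43). TCP9 had 12.2 and 10.9 FPKM in flg22 + hrcC leaves, against 14.7, 12.4 and 18.18 FPKM in flg22-only leaves, and 22.2 and 23.3 FPKM in water + hrcC leaves, against 5.27, 6.24 and 6.39 FPKM in water-only leaves (-2.12 ± 0.24).

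Genes with a more positive difference after flg22 were fewer. The transcription factor gene WRKY72 had 70.7 and 65.6 FPKM in flg22 + hrcC leaves, against 1.54, 0.942 and 1.42 FPKM in flg22-only leaves. After water it had 1.86 and 2.55 FPKM with hrcC and 0.191, 0.157 and 0.0281 FPKM without (3.41 ± 0.26, limma adjusted p = 3.47e-05). MYB87 had 12.7 and 13.7 FPKM in flg22 + hrcC leaves and 1.29 and 1.32 FPKM in water + hrcC leaves, and at most 0.0682 FPKM in leaves without hrcC (2.59 ± 0.25). PLL2, of the POLTERGEIST phosphatase family, had 18.17 and 14.1 FPKM in flg22 + hrcC leaves, against 2.76, 1.88 and 2.36 FPKM in flg22-only leaves, and 1.66 and 1.3 FPKM in water + hrcC leaves, against 2.05, 2.07 and 2.34 FPKM in water-only leaves (2.71 ± 0.26). AT1G36600 (2.44 ± 0.19) and AT1G36610 (2.43 ± 0.26) are neighbours on the chromosome and annotated pseudogenes, with 12.6 and 10.8 and with 15.7 and 10.3 FPKM in flg22 + hrcC leaves. AT1G51930 had 10.2 and 7.84 FPKM in flg22 + hrcC leaves and 1.32 and 1.94 FPKM in water + hrcC leaves, and was listed at 0 in every library of leaves without hrcC. At all 6 genes flg22 + hrcC leaves had the highest level of the 4 groups.

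**Figure D5:**
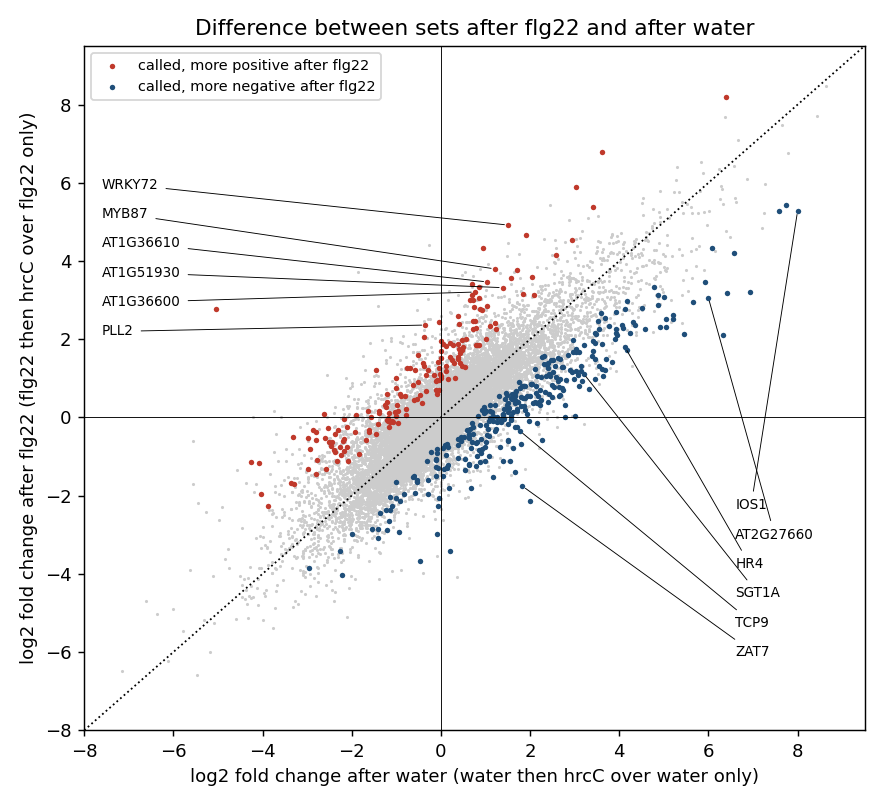
Log2 difference between leaves with and without hrcC after flg22 (vertical) and after water (horizontal), 1 point for each of the 18903 genes tested. Coloured points were called in the test of the difference between the 2 (limma, adjusted p under 0.05), 171 above the dotted line of equal differences and 300 below it; the 12 genes described in the text are labelled.

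Among the lists, calls in this test were nearly all negative. Over all genes tested 1.59% were called negative and 0.905% positive. Heat shock had 5 of 17, among them HSFA2 (-3.31 ± 0.47) and HSP90.1 (-2.69 ± 0.41), and NLR receptors had 5 of 21, among them CHS1 (-2.08 ± 0.48) and the helper NLR genes ADR1 (-1.57 ± 0.35) and ADR1-L2 (-1.73 ± 0.34). MAMP perception had 4 of 42, which were IOS1, BIR1, PUB24 and MKK4, and salicylic acid 4 of 30, which were SARD1 (-3.04 ± 0.43), NIMIN2 (-2.75 ± 0.69), CBP60G (-2.58 ± 0.59) and DMR6 (-1.98 ± 0.26). ACA12 (-3.72 ± 0.46) and CAX3 (-3.21 ± 0.60) were the calls among calcium genes. DWF4 (1.49 ± 0.24) was the single positive call in the 18 lists. Photosynthesis, clock, jasmonate and aliphatic glucosinolate lists had none. FRK1 (-1.61 ± 0.57, adjusted p = 0.176), NHL10, CYP81F2, FLS2, WRKY30, RMG1, PR1 and ROS1 were not called either, so their differences with hrcC were not shown to depend on the pretreatment.

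In rdd, the same difference between flg22 + hrcC (n = 2) and flg22-only leaves (n = 3) was set against that in WT. A single gene of 18903 (0.00529%) was called in limma, and 349 had an unadjusted p under 0.05. The latter number was 878 with the replicate number as a block and 1707 with 24 h libraries of low organelle share left out. The lack of calls therefore does not show that rdd and WT were alike. The called gene was AT1G32049, an annotated transcribed pseudogene, named here after its values were seen. RNA of the targeted genes was present in rdd: ROS1 averaged 17.1 ± 3.51 FPKM in rdd flg22 + hrcC leaves (SD, n = 2), above each WT library of that group, and DML3 averaged 0.38 ± 0.20 FPKM. Where the mutations lie is not given in the sources used here, so these levels do not check the genotype. AT1G32049 was listed at 0 in all 5 of these rdd libraries, had 2.38 and 2.9 FPKM in WT flg22 + hrcC leaves and was listed at 0 in WT flg22-only leaves (adjusted p = 0.0316). Leaving out 1 library gave 0 or 1 gene more positive and no gene more negative in 9 of the 10 fits, and 17 and 2 genes without replicate 3 of rdd flg22-only leaves. With the replicate number as a block 2 genes were more negative.

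Seedlings gave a view of the first hour in libraries that share no sample with the leaves. In 10-day-old WT seedlings 1 h of 100 nM flg22 (n = 3), against 0 h (n = 3), gave 2123 genes higher (11.2%) and 1273 lower (6.7%) of 19014 tested in limma. Of 17575 genes tested in both, 1484 were higher in both, which is 37.1% of the 3998 higher in leaves and 70.9% of the 2092 higher in seedlings. Of lower genes 716 were shared, 16.7% of the 4297 in leaves and 57.4% of the 1247 in seedlings. Over the 17575 genes, 22.7% were higher and 24.4% lower in leaves, and 11.9% higher and 7.1% lower in seedlings. Genes called in opposite directions numbered 60 and 69. Of the leading genes, PP2-A5 (4.31 ± 0.28 in seedlings), PUB22 (3.22 ± 0.14), AT5G36925 (5.80 ± 0.18) and PROPEP3 (4.43 ± 0.37) rose there too. JAZ8 did not pass the test in seedlings (0.13 ± 0.37). The antenna genes that fell furthest in leaves were not called in seedlings, with LHCB1.1 at -0.21 ± 0.27 and LHCB2.1 at -0.13 ± 0.22, whereas 11 of the 40 photosynthesis genes were lower there. BXL1 (-2.21 ± 0.17) and AT5G56100 (-2.32 ± 0.36) were lower in both. Of 17 heat shock genes 8 were higher in leaves and 15 in seedlings, and the difference between the 2 was not tested.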

How the data were processed

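Per the submitters' processing notes, reads were handled with tools that include HISAT2 and featureCounts on TAIR10, without versions. The authors deposited 1 table of 33597 genes and 38 RNA libraries. Its unit is not given in the sources used here, and from its values it was read as FPKM made by the authors, so no count test was used. The gene names come from RefSeq (TAIR10.1), which matched 32830 identifiers (97.7%). Whether counting used strand is not given, so overlapping antisense genes cannot be told apart. The 279 organelle genes (ATCG, ATMG) were left out. The 20 leaf libraries were scaled by median ratio over 17922 nuclear genes. A gene entered the test when 2 or more of these libraries reached 1 FPKM, and the test was run on log2(FPKM + 1) with limma 3.58.1 in R 4.3.3 (1 mean per group over 8 groups, 12 residual degrees of freedom, eBayes with trend and robust variances). P-values are two-sided, with Benjamini-Hochberg adjustment over all 18903 genes, and a call is an adjusted p under 0.05. The 18 seedling libraries were scaled and fitted apart. The fit was tested on simulated data with independent noise of capped spread and no split of replicate 3. That test therefore does not check the fit under the split seen in the 24 h libraries.

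Genes named are the 12 largest increases and decreases that were called, reached 5 FPKM in the mean of the higher group, had no library of that group at 0 and no overlap between groups, up to 4 members per list with the smallest adjusted p, the 6 smallest p per direction of each difference of differences with at least 5 FPKM in a group, and WRKY30, FRK1, NHL10, CYP81F2, FLS2, PR1, ROS1 and RMG1. Further list members were named for their role after their values were seen. The members and the 18 lists (445 entries, and 49 markers in 5 lists; 5 entries were left out because the annotation pairs them with another symbol) were chosen with earlier results of these data known. Alternatives covered scaling, pseudocount, filters, the libraries in the fit, the variance model, a replicate block and leaving out libraries. The 32 bisulfite samples and promoter sequences were not analysed here.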

Additional observations from a re-analysis of the deposited data

Results flagged for a closer look

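The test of the difference between pretreatments singled out 12 genes of WT leaves in which the log2 difference with hrcC was not the same after flg22 as after water. More positive after flg22 were WRKY72 (3.41), AT1G36600 (2.44), MYB87 (2.59), PLL2 (2.71), AT1G36610 (2.43) and AT1G51930 (1.93). More negative were IOS1 (-2.72), AT2G27660 (-2.94), TCP9 (-2.12), SGT1A (-2.08), HR4 (-2.34) and ZAT7 (-3.59). At AT1G51930, AT1G36600, AT1G36610 and MYB87, with at most 0.471 FPKM in leaves without hrcC, the fitted size depends on the added 1 FPKM. The same holds for WRKY72, at 0.191, 0.157 and 0.0281 FPKM in water-only leaves. WRKY72, AT1G36600 and AT1G36610 were each no longer called under 1 of the alternatives.

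The same test between genotypes singled out AT1G32049, with a fitted difference of -1.86 for rdd minus WT. It was listed at 0 in every flg22-treated rdd leaf library and in WT flg22-only leaves, so this size too depends on the added 1 FPKM.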

How the results depend on the processing

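The counts with hrcC stayed within 1.5 times of 4268 higher and 4471 lower under every alternative but 1. Without scaling they were 3612 and 5471, as the median of all genes tested moved to -0.13, and with 1 library left out they lay between 3121 and 4596 higher and between 3039 and 4982 lower. The exception, chosen after seeing the data, left out the 24 h libraries of low organelle share and gave 6571 higher. Among the 98 named genes BCAT4 turned round, with -0.12 (adjusted p = 0.671) against 24 h libraries of low organelle share.

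The difference between pretreatments was less stable. Against 171 genes more positive and 300 more negative, a pseudocount of 0.1 gave 97 and of 5 gave 313 more positive, a mean of at least 5 FPKM gave 99, and fitting only the compared groups gave 45 and 63. Without scaling 559 were more negative. Leaving out low-organelle 24 h libraries gave 2333 and 3173, and leaving out high-organelle ones 775 and 1253. With 1 library left out the counts lay between 38 and 265 and between 46 and 466.

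For rdd minus WT, with 0 and 1 genes, a pseudocount of 5 gave 6 and 4, no filter 9 and 14, and leaving out low-organelle libraries 36 and 9. A pseudocount of 0.1, a mean of at least 5 FPKM, values above 0 throughout, the compared groups alone and leaving out high-organelle libraries gave 0 more negative. With 1 library left out they lay between 0 and 17 and between 0 and 2.

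Replicate numbers did not pair flg22 + hrcC with flg22-only libraries (correlations of deviations -0.02 and -0.11), while same-numbered 24 h libraries deviated together after flg22 and after water (0.45, 0.41 and 0.64). Unlike-numbered replicates 1 and 2 of these groups did so as well (0.47 and 0.33), and replicate 3 had -0.45 to -0.61 with both. Deviations were taken from group means, so the values of replicate 3 follow from those of replicates 1 and 2. With a replicate block 6374 genes were higher and 6414 lower, 1090 and 1679 were called between pretreatments, and 2 were more negative in rdd. The promoter motif alternative was not run. Depth is unknown, and 2 libraries with hrcC limit every test. The cause of these shifts was not tested.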

Other observations

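Gene families outside the lists, picked by symbol after their values were seen, are given as description. Several families had more members higher than lower in flg22 + hrcC leaves: 12 of 17 EXO70 genes, which encode exocyst subunits, were called higher and none lower (median log2 difference 0.92), as were 12 of 19 RABA genes for small GTPases (median 1.19) and 12 of 14 genes with SEC symbols, with 1 lower (median 0.90). EXO70H1 had 58 and 52.7 FPKM in flg22 + hrcC leaves, against 0.351, 0.373 and 0.452 FPKM in flg22-only leaves (5.34 ± 0.16). SYP121, a syntaxin of secretion in defence also called PEN1, had 259 and 256 FPKM in flg22 + hrcC leaves, against 64.3, 60.3 and 70.6 FPKM in flg22-only leaves (1.97 ± 0.14), and 10 of 18 SYP genes were higher and 1 lower. Of 12 GAUT genes for pectin synthesis 10 were higher and none lower (median 1.21), with GAUT14 at 61.4 and 50.2 FPKM in flg22 + hrcC leaves, against 5.71, 5.69 and 9.45 FPKM in flg22-only leaves (2.86 ± 0.20). Among kinases 28 of 37 genes with CRK symbols were higher and 1, CRK1, lower (median 1.60). A shared symbol does not show that these genes form 1 family. Of MAPKKK genes 10 of 12 were higher and none lower (median 1.93), and 14 of 20 CPK genes were higher and 1 lower (median 1.13). MAPKKK15 had 69.6 and 53.4 FPKM in flg22 + hrcC leaves, against 0.107, 0.216 and 0.122 FPKM in flg22-only leaves (5.76 ± 0.20). Of 53 WRKY genes 29 were higher and 3 lower (median 0.90, and 1.62 against replicate 3 of flg22-only leaves).

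Other families had more members lower than higher. Of 11 PIP aquaporin genes 7 were called lower and none higher (median -2.46, which was -3.33 against replicates 1 and 2 of flg22-only leaves and -0.92 against replicate 3). PIP2B had 22.9 and 22.8 FPKM in flg22 + hrcC leaves, against 637, 588 and 153 FPKM in flg22-only leaves (-4.02 ± 0.68), and PIP2A had 43.2 and 29.5 FPKM in flg22 + hrcC leaves, against 1067, 1169 and 142 FPKM in flg22-only leaves (-3.94 ± 0.92). Of 26 UMAMIT transporter genes 15 were lower and 3 higher (median -1.23, and -0.69 against replicate 3). Of 15 BBX genes, many of them light-signalling factors, 8 were lower and 2 higher (median -1.99). Of 12 HCF genes, named for high chlorophyll fluorescence, 11 were lower and none higher (median -1.34). Over all genes tested 22.6% were higher and 23.7% lower.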
